A study of Homo sapiens with 12 samples.

Results

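The OR2, OR4 and OR5 olfactory receptor genes were followed in HEK293T cells, a line derived from human embryonic kidney. A row of the gene count table was taken where its symbol was OR2, OR4 or OR5 followed by letters and a number, and rows of pseudogenes and of extra copies were left out. The rule gave 173 genes of 61163 rows, of which 68 were OR2, 55 were OR4 and 50 were OR5 genes.

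The study compared wild-type HEK293T cells (HEK WT) with HEK293T cells in which HNRNPUL1 had been knocked out with CRISPR-Cas9 and guides to exons 2 and 3 (HEK UL1 KO). HNRNPUL1 codes for hnRNP UL1, an RNA-binding protein of the nucleus. Each genotype was fractionated into a nucleolar (NO) and a cytoplasmic-nuclear (CN) fraction, and total RNA was sequenced without removal of rRNA, in biological triplicate. The 4 groups of 3 libraries were WT NO, KO NO, WT CN and KO CN. One knockout line was compared with the wild-type cells, so differences between the genotypes cannot be told apart from differences between the lines, and whether the knockout line was a single clone is not given in the sources used here.

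Olfactory receptors are G protein-coupled receptors that detect odorants in the nose. An olfactory sensory neuron transcribes a single receptor gene, while the remaining receptor genes are kept in heterochromatin. In other cells the whole family is mostly silent, and its clusters often lie in the compact chromatin at the nuclear periphery and around nucleoli. The coding sequence of a receptor gene is usually a single exon, and many genes have close copies from recent duplications. These libraries held no measurement of chromatin or of nuclear position, so the label of a silent-chromatin readout was not tested. What was measured is RNA counted on receptor gene models.

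Close copies decide how far a count can be assigned to a single gene, so short stretches of the coding sequences are shown for 4 genes with a near-identical copy and 2 without one in the primary genome. Each stretch has the length of a read, 75 bases, and was read 5′ to 3′ on the coding strand from GRCh38 (hg38) with GENCODE release 44. Capitals mark the base at which the members of a pair differ.
OR2A1: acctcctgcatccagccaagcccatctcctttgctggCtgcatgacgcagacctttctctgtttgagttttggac
OR2A42: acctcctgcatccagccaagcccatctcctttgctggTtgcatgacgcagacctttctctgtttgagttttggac
OR2T2: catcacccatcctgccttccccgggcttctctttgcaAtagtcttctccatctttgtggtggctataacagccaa
OR2T35: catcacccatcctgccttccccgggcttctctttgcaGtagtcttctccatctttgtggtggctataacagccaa
OR2L13: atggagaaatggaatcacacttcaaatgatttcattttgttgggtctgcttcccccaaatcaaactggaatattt
OR5V1: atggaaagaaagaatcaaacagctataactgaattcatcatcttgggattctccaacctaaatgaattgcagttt
The stretch of OR2A1 lies at chr7:144318372-144318446 on the plus strand and that of OR2A42 at chr7:144232522-144232596 on the minus strand. This base, at coding position 285, is the single difference in their 930 coding bases. The stretch of OR2T2 lies at chr1:248452851-248452925 on the plus strand and that of OR2T35 at chr1:248639131-248639205 on the minus strand, and their coding sequences were 972 and 969 bases long. The first 75 coding bases of OR2L13 lie at chr1:248099376-248099450 on the plus strand and those of OR5V1 at chr6:29356121-29356195 on the minus strand.

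Of the 173 genes, 93 had no stretch of 75 coding bases that recurred elsewhere in the primary genome, and 3 had none that was unique. These 3 were OR4F16, OR4F3 and OR4F29, whose coding sequences were identical. Another protein at least 95% identical was found for 25 genes, and 37 genes had 91 extra copy rows in the table, 40 of which held the same count as the gene in every library. OR2A1 and OR2A42 held 193 and 237 counts over the 12 libraries. OR2T2 and OR2T35 held 72 and 65 counts and were equal in 7 libraries. Values of such genes are therefore not independent of each other.

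The libraries held 37141666 to 104040073 counts. Rows of rRNA took 55.3% to 65.1% of the counts in NO and 73.9% to 78.7% in CN. Levels are given as counts per 1000000 (CPM) of the library size after TMM scaling over all 12 libraries, a correction for differences in composition. Fold changes come from fits of the 6 libraries compared, scaled among themselves, so a fold change can differ from the ratio of the printed levels. The median log2 fold change of NO against CN over all genes tested was 0.02 in WT and 0.03 in KO in these fits, 0.26 and 0.25 with all 12 libraries in one fit and 0.37 and 0.79 with scaling to total counts. WT NO replicate 3 had the highest TMM factor, 1.71, and WT CN replicate 3 had the lowest, 0.573. HNRNPUL1 itself had 19.5 to 23.9 CPM in WT CN and 5.81 to 5.89 CPM in KO CN, and 7.59 to 16.3 CPM in WT NO and 2.95 to 3.46 CPM in KO NO. Its log2 fold change was -1.83 ± 0.08 (SE) in CN, with an adjusted p of 2.12e-07, and -1.997 ± 0.32 in NO, with an adjusted p of 0.00649 (edgeR's quasi-likelihood test, 3 against 3 libraries). The knockout label therefore held in both fractions.

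RNA on the receptor genes was scarce. Every gene had at least 4 counts over the 12 libraries, but the median was 20 counts and 149 of the 173 genes stayed under 100 counts. No gene was at 0 in all 6 NO libraries, while 24 were at 0 in all 6 CN libraries. Between 114 and 166 genes had a count in a NO library and between 51 and 98 in a CN library. Thinned to the total of the smallest library, 100.3 to 156.0 genes were expected to have a count in NO and 29.8 to 81.2 in CN. The gap thus remained at equal totals. These totals include the rRNA rows, which took a larger part of the counts in CN. The depth outside rRNA was therefore still lower in CN after the thinning.

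The summed level of the 173 genes was higher in NO than in CN. It was 23.8, 18.9 and 32.4 CPM in WT NO and 31.5, 25.3 and 31.5 CPM in KO NO. In CN it was 15.5, 17.02 and 11.6 CPM in WT and 17.13, 18.04 and 18.6 CPM in KO. All NO libraries lay above all CN libraries of the same genotype. The group means were 25.0 ± 6.83 CPM in WT NO and 14.7 ± 2.80 CPM in WT CN (SD, n = 3), a ratio of 1.70, and 29.4 ± 3.57 CPM in KO NO and 17.9 ± 0.733 CPM in KO CN, a ratio of 1.64. In WT CN the sum over all these genes was lower than the mean of HNRNPUL1 alone, 22.0 CPM. No p is given for the sum, because the gene set was proposed with results of these data known.

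**Figure D1:**
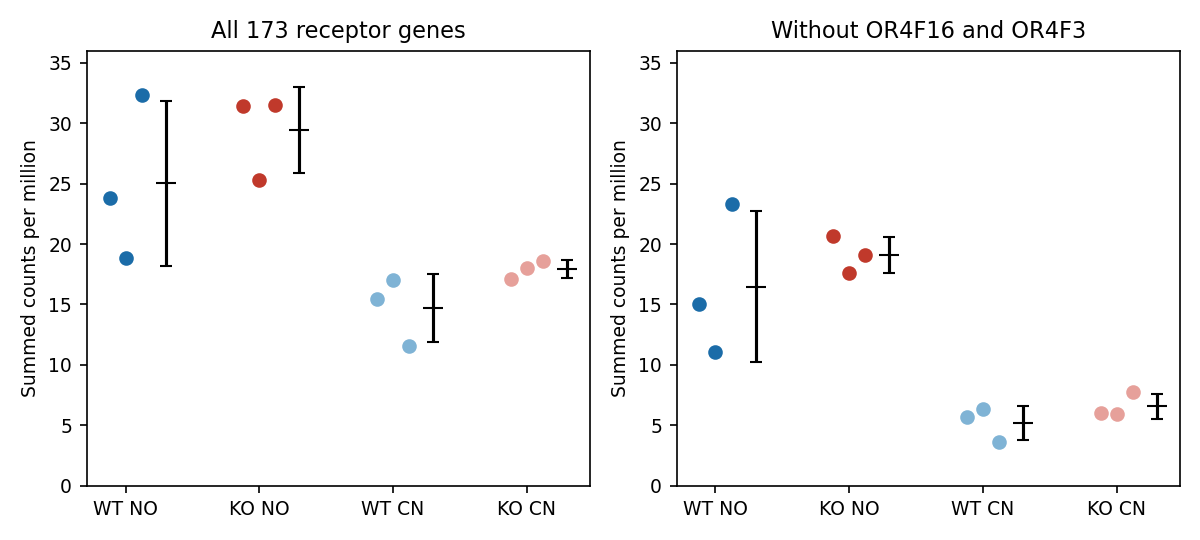
Summed level of the receptor genes, in CPM, for each library (points) with the group mean and SD (bars, n = 3). Left, all 173 genes, with NO at 18.9 to 32.4 and CN at 11.6 to 18.6. Right, without OR4F16 and OR4F3, with NO at 11.1 to 23.3 and CN at 3.59 to 7.79.

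The ratios between the genotypes were smaller. In NO the KO libraries lay within the range of the WT libraries, with a ratio of means of 1.18. In CN the KO libraries all lay above the WT libraries, with a ratio of 1.22, but the lowest KO library, at 17.13 CPM, was next to the highest WT library, at 17.02 CPM. Scaled to the counts outside rRNA, the ratios of KO to WT were 1.48 in NO and 1.40 in CN. On that scale the libraries again overlapped in NO, with sums of 39.7 to 123.6 in WT and 99.1 to 130.7 in KO, and not in CN, with 31.2 to 53.8 in WT and 58.0 to 66.9 in KO. WT NO replicate 3 stood apart from the other WT NO libraries. In CPM, the ratio in NO was 1.38 without it, against 1.18 with all libraries. Leaving out any other single NO library gave 1.05 to 1.26. Without WT NO replicate 3 the genotypes no longer overlapped in NO. The other WT libraries had 18.9 and 23.8 CPM, against 25.3 to 31.5 CPM in KO. Scaled to the counts outside rRNA they had 39.7 and 61.2, against 99.1 to 130.7 in KO.

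A pair of genes carried much of the sum. OR4F16, at chr1:676076-720101 of the RefSeq GRCh38.p14 annotation, and OR4F3, at chr5:181342142-181370030, together held 44.2% of all receptor counts. Both lie near the end of a chromosome, and both receptors are encoded by the same coding sequence as OR4F29. Their share was 27.99% to 41.3% in NO libraries and 58.1% to 69.0% in CN libraries. Without them the sum was 16.5 ± 6.25 CPM in WT NO and 5.20 ± 1.43 CPM in WT CN, a ratio of 3.17, and 19.1 ± 1.497 CPM in KO NO and 6.56 ± 1.07 CPM in KO CN, a ratio of 2.91. The remaining 171 genes thus differed more between the fractions than the full sum. The ratio of KO to WT without the pair was 1.16 in NO and 1.26 in CN.

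OR4F16 had 5.03, 4.57 and 5.20 CPM in WT NO and 6.31, 6.51 and 4.97 CPM in WT CN. In KO cells it had 6.32, 4.28 and 7.22 CPM in NO and 6.69, 7.36 and 6.39 CPM in CN. The fractions overlapped in both genotypes, and the log2 fold change of NO against CN was 0.01 ± 0.19 in WT and -0.23 ± 0.17 in KO, neither past the threshold. These directions depended on the scaling, with -0.26 in WT when all 12 libraries were fitted together and 0.53 in KO with scaling to total counts, where adjusted p was 0.0374 (edgeR). OR4F3 had 3.75, 3.22 and 3.86 CPM in WT NO and 3.43, 4.21 and 3.02 CPM in WT CN. It had 4.50, 3.36 and 5.16 CPM in KO NO and 4.47, 4.76 and 4.40 CPM in KO CN, which also overlapped. OR4F29, with the same coding sequence, held 70 counts in all, against 4572 for OR4F16 and 3108 for OR4F3. The RefSeq spans of OR4F16 and OR4F3 are 44026 and 27889 bases, while their GENCODE models are a single exon of 939 bases and exons of 995 bases in total. The span of OR4F16 overlaps 8 other RefSeq genes. The source of the counts of OR4F16 and OR4F3 was not tested.

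The next genes by level were more abundant in NO. OR2L13 had 2.05, 1.54 and 2.89 CPM in WT NO and 1.11, 1.13 and 1.11 CPM in WT CN. In KO cells OR2L13 had 1.71, 1.46 and 1.77 CPM in NO and 1.44, 0.834 and 1.38 CPM in CN, so the fractions were close together there. Its RefSeq span of 163987 bases covers 11 other annotated genes, several of them receptor genes and pseudogenes.

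OR5V1, in the receptor cluster beside the major histocompatibility complex, had 1.38, 0.864 and 1.93 CPM in WT NO and 0.531, 0.393 and 0.134 CPM in WT CN. In KO cells it had 2.00, 1.83 and 1.79 CPM in NO and 0.469, 0.376 and 0.670 CPM in CN. OR2F1 had 0.769, 0.630 and 1.21 CPM in WT NO and 0.304, 0.242 and 0.0336 CPM in WT CN. Its KO levels were 1.04, 1.5003 and 1.51 CPM in NO and 0.351, 0.262 and 0.426 CPM in CN. For OR5V1 and OR2F1 all NO libraries were above all CN libraries in both genotypes.

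**Figure D2:**
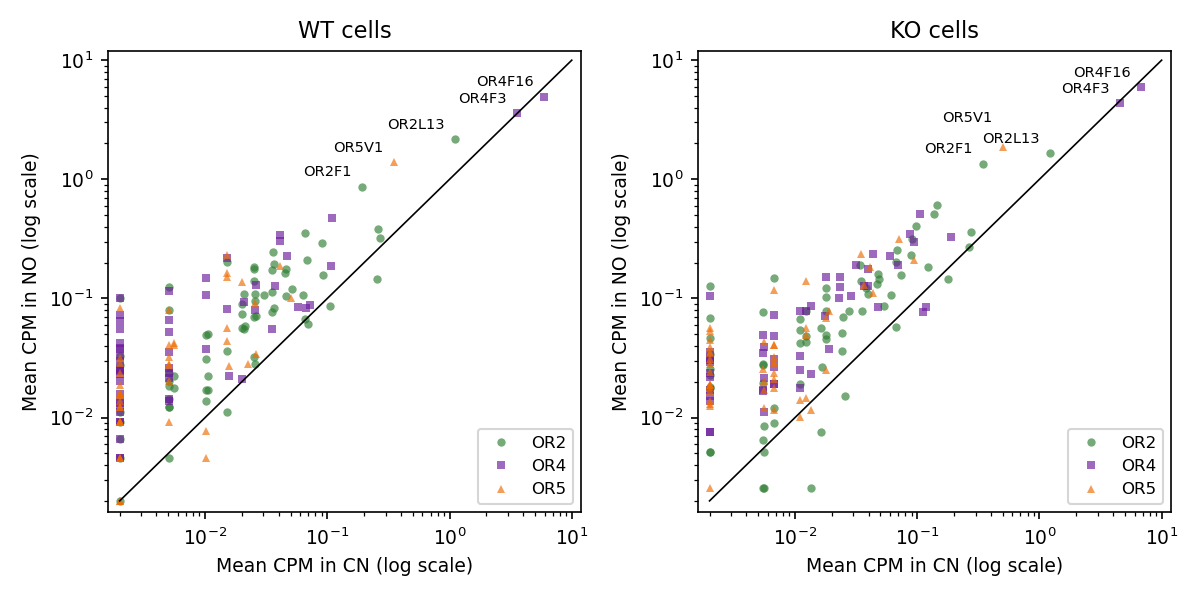
Mean level of each of the 173 receptor genes in CN (horizontal axis) and NO (vertical axis), in CPM on log axes, in WT (left) and KO cells (right), with symbols for the OR2, OR4 and OR5 genes and means under 0.002 drawn at 0.002. Most genes lie above the line of equal level, 162 in WT and 159 in KO, while OR4F16 and OR4F3 lie on or near it.

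Of the genes with a count, 61 of 170 (35.9%) had all WT NO libraries above all WT CN libraries, against 29.2% of all rows with a count. In KO cells 76 of 173 (43.9%) did so, against 34.8% of all rows. A single gene of 170 in WT and 0 of 173 in KO had every CN library above every NO library, against 21% and 22.5% of all rows. The shares of receptor genes with all NO libraries higher were thus slightly above those of all rows, a large part of which was also higher in NO. The shares with all CN libraries higher were far below those of all rows. A gene at 0 in any CN library of a genotype could not be counted as higher in CN there. Of the 173 genes, 122 were at 0 in WT CN replicate 3 and 90 in KO CN replicate 1. The low shares were thus largely set by low counts, and no conclusion is drawn from them.

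Few receptor genes reached the counts needed for a test of single genes. A gene could pass the filter on low counts through NO alone, the fraction in which these genes were higher, so the counts of calls below describe the genes tested and not the family. In WT cells 15 receptor genes were tested between the fractions, and 10 were higher in NO and none lower at an adjusted p under 0.05 (edgeR's quasi-likelihood test, adjusted over 29340 genes). Of all genes tested 31.9% were higher in NO. In KO cells 29 receptor genes were tested and 21 were higher in NO and none lower, against 40.7% of the 34468 genes tested. With scaling to total counts 9 of 15 receptor genes in WT and 26 of 29 in KO were higher in NO and none lower. On that scale 6387 of all 29340 genes tested in WT and 18451 of 34468 in KO were higher. Of the calls over all genes, 60.4% in WT and 53.3% in KO were higher in NO, and 91.1% and 95.7% with scaling to total counts. The median log2 fold change was 1.91 over the tested receptor genes in WT and 1.88 in KO, while over all genes tested it was 0.02 and 0.03.

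The calls covered 9 genes in both genotypes, namely OR2A1, OR2A42, OR2A7, OR2F1, OR2V2, OR4F5, OR4F17, OR4N2 and OR5V1. OR4F17 had the largest change in WT, 3.29 ± 0.65 with an adjusted p of 0.00466 (edgeR), from 17, 11 and 32 counts in NO against 1, 6 and 1 in CN. OR4F5 gave 17, 9 and 26 counts in NO against 1, 6 and 1 in CN, a log2 fold change of 3.09 ± 0.65. The proteins of these receptors are 99.1% identical and their counts were equal in 6 libraries, so they are not independent measurements. OR2A1 had 12, 8 and 23 counts in WT NO and 3, 3 and 1 in WT CN, a change of 3.00 ± 0.56. OR2A42 followed with 2.68 ± 0.59, from 16, 11 and 36 counts against 6, 6 and 1. The receptor genes OR2A1, OR2A42 and OR2A7 overlap ARHGEF35-AS1 or OR2A1-AS1, antisense genes with a mean of at least 1 CPM. The strand setting of the counting is not given, so reads of the partners could not be told apart.

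In KO cells the estimates for these genes were 1.87 ± 0.33 for OR2A1, 2.03 ± 0.34 for OR2A42, 1.63 ± 0.46 for OR4F5 and 1.95 ± 0.43 for OR4F17. The interaction of genotype and fraction, which tests whether the genotypes differ in this respect, was called for 0 of 45 receptor genes tested by edgeR, against 0.114% of 37806 genes. At an unadjusted p under 0.05 it held for 1 receptor gene, OR5AN1, against 3.32% of all genes, and DESeq2 called 0 receptor genes, against 0.137% of all genes it modelled. OR5AN1, a receptor for musk odorants, had 11, 4 and 13 counts in WT NO, 2, 1 and 0 in WT CN, 39, 12 and 6 in KO NO and 5, 6 and 5 in KO CN. It was singled out after its values were seen. Over the 45 genes the median standard error of the interaction was 1.01, so only large differences between the genotypes could be called.

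OR5V1 changed by 2.27 ± 0.50 in WT and 1.89 ± 0.21 in KO, OR2F1 by 2.45 ± 0.60 and 1.93 ± 0.26, and OR4N2, in the cluster on chromosome 14, by 2.41 ± 0.56 and 2.25 ± 0.36. OR2V2, for which adjusted p was 0.0442 in WT, changed by 1.91 ± 0.71 there and 1.39 ± 0.35 in KO. The WT call of OR2V2 was lost with DESeq2 (adjusted p = 0.0707), with scaling to total counts (0.114, edgeR) and without any of WT NO replicates 1 and 3 and WT CN replicates 1 and 3 (0.0735 to 0.117), and its KO call was lost with DESeq2 (0.0801). OR2A7 changed by 1.87 ± 0.45 and 1.79 ± 0.37, and its WT call was lost with DESeq2 (adjusted p = 0.0819) and with no filter on low counts. For OR5V1, OR2F1, OR4N2, OR2V2 and OR2A7 the WT and KO estimates lay within their combined standard errors. Those of OR2A1, OR4F5 and OR4F17 lay further apart than that. The interactions of these genes were -0.83 ± 0.66, -1.16 ± 0.86 and -1.04 ± 0.83 and were not called.

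A further 12 genes were called in KO and were not tested in WT, where their counts were too low. OR5AS1 had 51, 8 and 9 counts in KO NO and 4, 1 and 1 in KO CN, a log2 fold change of 2.81 ± 0.60. OR4K13, with 22, 7 and 8 counts against 2, 1 and 1, changed by 2.59 ± 0.50, and OR4K1, with 36, 12 and 11 against 2, 1 and 4, by 2.47 ± 0.47. Both belong to the receptor cluster on chromosome 14. OR2AT4, a receptor also known from skin cells, changed by 1.67 ± 0.44, and OR4F15 by 1.33 ± 0.46, the smallest of the called changes in KO. Both calls were lost with DESeq2, with an adjusted p of 0.0791 for OR2AT4 and 0.125 for OR4F15. That of OR4F15 was also lost with no filter and without any of KO NO replicate 3 and KO CN replicates 2 and 3 (adjusted p 0.0783 to 0.14, edgeR).

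OR2T2 had 17, 10 and 7 counts in KO NO and 0, 0 and 1 in KO CN. The ratio of pooled levels was 24.4, with a 95% exact counting interval from 4.09 to 990, so the size of this difference was not resolved. OR4M1 had 3, 4 and 11 counts in WT NO and 0 in every WT CN library, at least 6.92-fold higher in NO when 3 counts over the group are taken as the limit of a count of 0. In KO cells OR4M1 had 26, 8 and 12 counts in NO and 2, 0 and 3 in CN, a log2 fold change of 2.60 ± 0.58.

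OR2L13 was called in WT, at 1.25 ± 0.30 with an adjusted p of 0.00818 (edgeR), and had 0.42 ± 0.20 with an adjusted p of 0.0796 in KO. The KO value passed the threshold with scaling to total counts (1.17), with TMM without the rRNA genes (0.52), with at least 10 counts in every library (0.85) and without KO NO replicate 2 (0.54). The interaction for OR2L13 was -0.52 ± 0.36 and was not called. Beside OR4F16 and OR4F3, the genes OR2T12, OR2G6 and OR2AG2 were tested in both genotypes and called in neither. OR2AG2 had lower means in NO, with log2 fold changes of -0.51 ± 0.44 in WT and -0.28 ± 0.38 in KO, while OR2T12 had 0.55 ± 0.38 and 0.36 ± 0.31.

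**Figure D3:**
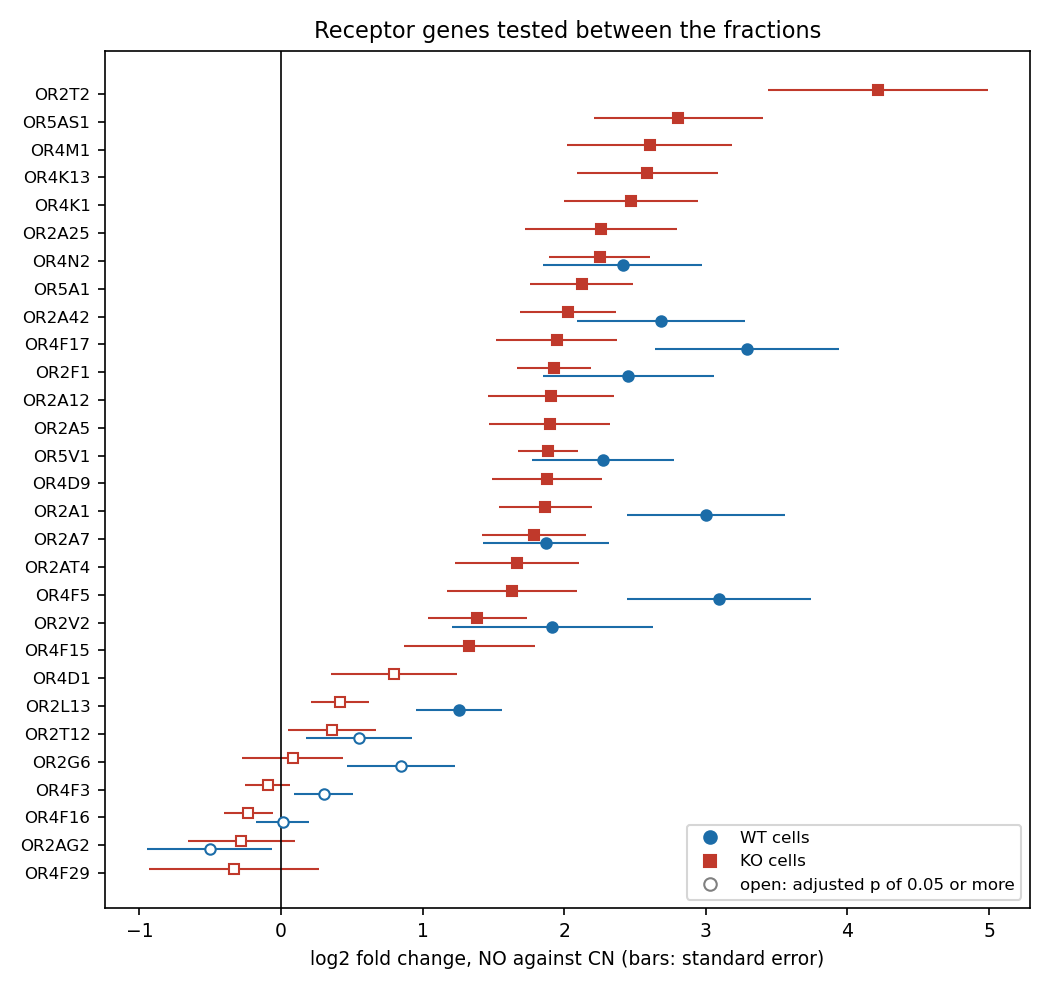
Log2 fold change of NO against CN with its standard error for every receptor gene tested in WT (circles) and KO cells (squares). Filled symbols, 10 in WT and 21 in KO, have an adjusted p under 0.05, and all of them lie to the right of 0.

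Next, the genotypes were compared within each fraction. In NO, 36 receptor genes were tested and none was called by edgeR, against 0.939% of 34836 genes. At an unadjusted p under 0.05 there was 1, OR2A1, against 16% of all genes tested, and DESeq2 called 0 receptor genes, against 1.82% of all genes it modelled. OR2A1 had 0.237, 0.187 and 0.317 CPM in WT NO and 0.489, 0.398 and 0.660 CPM in KO NO, with all KO libraries above all WT libraries. Its log2 fold change was 0.96 ± 0.38, with an adjusted p of 0.229. Without WT NO replicate 3, which stood apart, OR2A1 (1.14 ± 0.39, adjusted p 0.0427) and OR2F1 (0.81 ± 0.29, adjusted p 0.0470) passed the threshold in edgeR. Of the 36 fold changes 26 were above 0, with a median of 0.29, while 50.3% of all genes tested were above 0.

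Other receptor genes varied on both sides of 0. OR2A12 had the highest value, 1.02, and OR2G6 the lowest, -0.54 ± 0.39. OR2L13 had -0.45 ± 0.28, and OR4F16 and OR4F3 both had 0.20, with standard errors of 0.27 and 0.26. The median standard error was 0.48, so a change of less than 1 on the log2 scale could hardly be called for a typical receptor gene. All KO NO libraries were above all WT NO libraries for 13 of 173 receptor genes (7.51%), against 9.46% of all rows with a count, and below them for 8 (4.62%), against 6.38%.

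**Figure D4:**
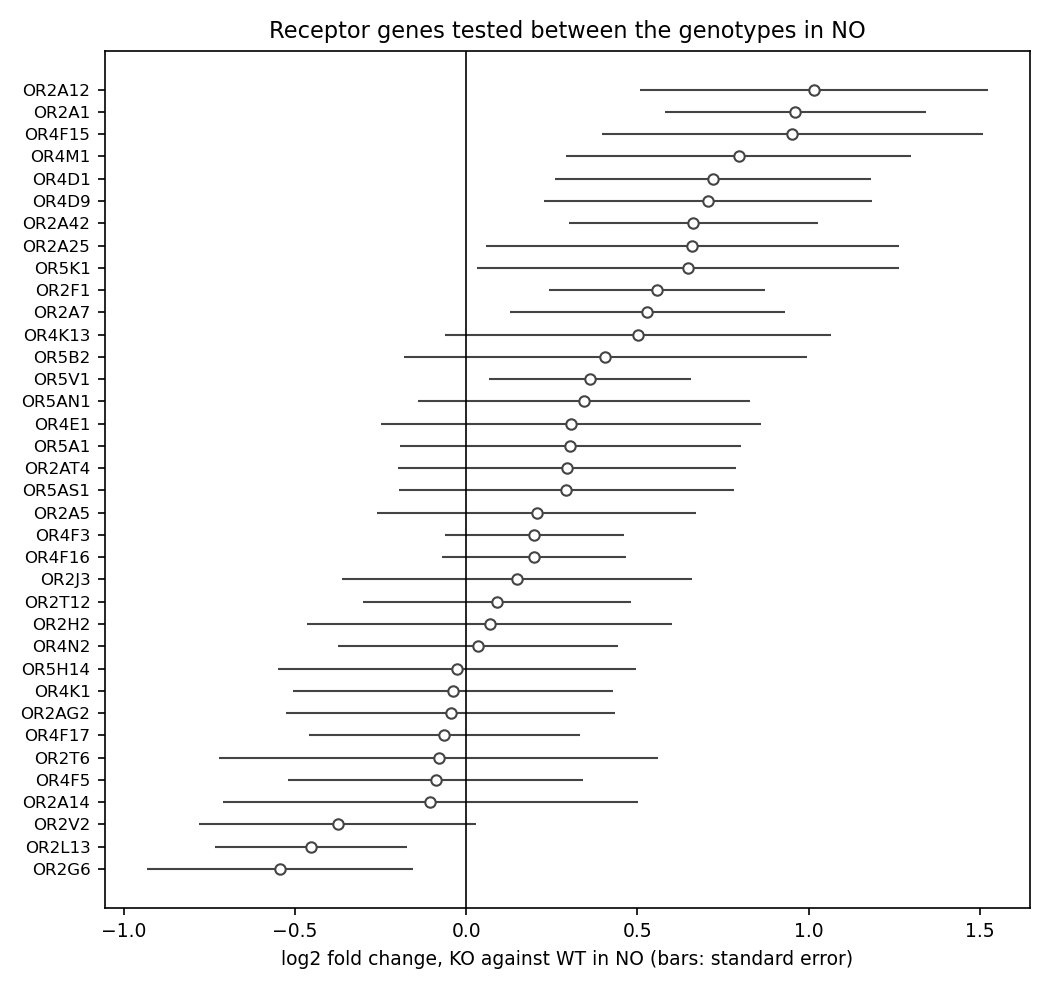
Log2 fold change of KO against WT in NO with its standard error for the 36 receptor genes tested. None has an adjusted p under 0.05, and 26 of the 36 points lie above 0.

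In CN, 8 receptor genes were tested and 1, OR4F3, was higher in KO, against 15.6% of 27234 genes that were higher. Its log2 fold change was 0.43 ± 0.14, with an adjusted p of 0.0281 in edgeR's quasi-likelihood test. The call was lost with DESeq2, where adjusted p was 0.0733, with scaling to total counts (0.0657, edgeR) and with all 12 libraries in one fit (0.247, edgeR). It was also lost without any of WT CN replicate 1 and KO CN replicates 1, 2 and 3 (0.0526 to 0.0778, edgeR). The single receptor gene called in the joint fit was another, OR2A1, at 1.85 ± 0.56 with an adjusted p of 0.0406 (edgeR). OR4F16 had 0.28 ± 0.12, with an adjusted p of 0.0924. OR2F1 had 0.88 ± 0.54, OR5V1 had 0.56 ± 0.44 and OR2AG2 had -0.42 ± 0.39. All KO CN libraries were above all WT CN libraries for 9 of 149 receptor genes with a count (6.04%), against 15.7% of all rows, and below them for 0, against 17.1%.

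The ratio between the fractions was also taken for each subfamily, with no test between them. The OR5 genes summed to 3.37 ± 1.61 CPM in WT NO and 0.697 ± 0.328 CPM in WT CN, a ratio of 4.84, and the ratio was 4.23 in KO. For the OR2 genes the ratios were 2.48 in WT and 2.38 in KO. For the OR4 genes, which include OR4F16 and OR4F3, they were 1.21 and 1.19. The order was another over the intronless genes without a near-identical copy, taken as CPM per kb of exon. A gene was called intronless where its RefSeq span was at most 1.1 times its GENCODE exon length. There the ratios in WT and KO were 7.71 and 5.16 for 26 OR4 genes, 5.48 and 4.77 for 32 OR5 genes and 1.38 and 1.86 for 18 OR2 genes. The OR4 genes held 57.7% of all receptor counts, the OR2 genes 30.6% and the OR5 genes 11.7%.

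The genes lie on 14 chromosomes. Chromosome 11 has 66 of them but gave only 9.75% of the receptor counts, while chromosome 1, with 37 genes, gave 42.3%, and chromosome 5, with 4 genes, gave 19.2%. The ratio of NO to CN was 3.44 in WT and 3.71 in KO on chromosome 11, and 6.78 and 5.40 for the 17 genes of chromosome 14. On chromosome 1, where OR4F16 lies, it was 1.24 and 1.11, and on chromosome 5, where OR4F3 lies, 1.09 and 1.01. The 11 genes of chromosome 7, with the OR2A cluster, had ratios of 4.92 and 3.77.

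Counts followed the size of the gene model. Across the 173 genes, Spearman's rho of the total count was 0.68 with the exon length and 0.74 with the RefSeq span, given as descriptions since these genes share libraries and neighbours. The 87 intronless genes held 7.14% of the receptor counts, with 4 to 70 counts each. Their summed level was 2.05 ± 0.865 CPM in WT NO and 0.665 ± 0.298 CPM in WT CN, and 2.46 ± 0.243 CPM in KO NO and 0.839 ± 0.356 CPM in KO CN. The ratios of NO to CN were 3.08 and 2.93.

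The genes were also divided by their distance to expressed genes. The 119 genes that lay over 100 kb from a gene with a mean of at least 1 CPM had ratios of NO to CN of 3.23 in WT and 2.90 in KO. The 13 genes within 10 kb of such a gene had 1.06 and 1.12, and the 41 genes in between had 1.498 and 1.48. OR4F16 held 4572 of the 5658 counts of the 13 genes, and OR4F3 held 3108 of the 5631 counts of the 41. The lower ratios of these groups thus rest largely on OR4F16 and OR4F3 and do not show a trend with distance. The distance and the total count had a Spearman's rho of -0.31 over all 173 genes and -0.12 over 76 intronless genes without a near-identical copy. The part of reads from neighbouring transcripts in these counts was not tested.

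Intronless genes allow a comparison per length with other clustered families. The 76 intronless receptor genes without a near-identical copy had 0.0157 ± 0.00698 CPM per kb of exon in WT NO and 0.0194 ± 0.00285 in KO NO, and 0.00462 ± 0.00145 in WT CN and 0.00515 ± 0.00226 in KO CN. These values rest on 45 to 296 counts in a NO library and 16 to 41 counts in a CN library. The 118 intronless genes of the other olfactory receptor families had 0.0200 ± 0.0115 in WT NO and 0.00377 ± 0.00146 in WT CN. The 94 KRTAP genes, which code for keratin-associated proteins of hair, had 0.0186 ± 0.00846 and 0.00588 ± 0.00211. In WT the libraries of both families overlapped with those of the receptor genes in each fraction. In KO NO the other olfactory receptor genes lay above the receptor genes, at 0.0252, 0.0290 and 0.0273 against 0.0226, 0.0171 and 0.0184, while the KRTAP genes, at 0.0259, 0.0260 and 0.0212, overlapped with them.

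The 23 intronless TAS2R genes, which code for bitter taste receptors, had lower densities in NO than in CN, with 0.0835 ± 0.0238 CPM per kb in WT NO and 0.158 ± 0.0143 in WT CN. Their density ratio of NO to CN was 0.530 in WT and 0.610 in KO, against 3.39 and 3.76 for the receptor genes. Summed over all 25 TAS2R genes, those with introns included, the ratio of CPM was 1.15 in WT and 1.41 in KO, in the other direction. The clustered protocadherin genes, cell-surface adhesion genes that HEK293T cells transcribe, had 17 intronless genes with 0.00751 ± 0.00126 in WT CN and 0.0189 ± 0.00247 in KO CN. No test of these differences between families was made.

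**Figure D5:**
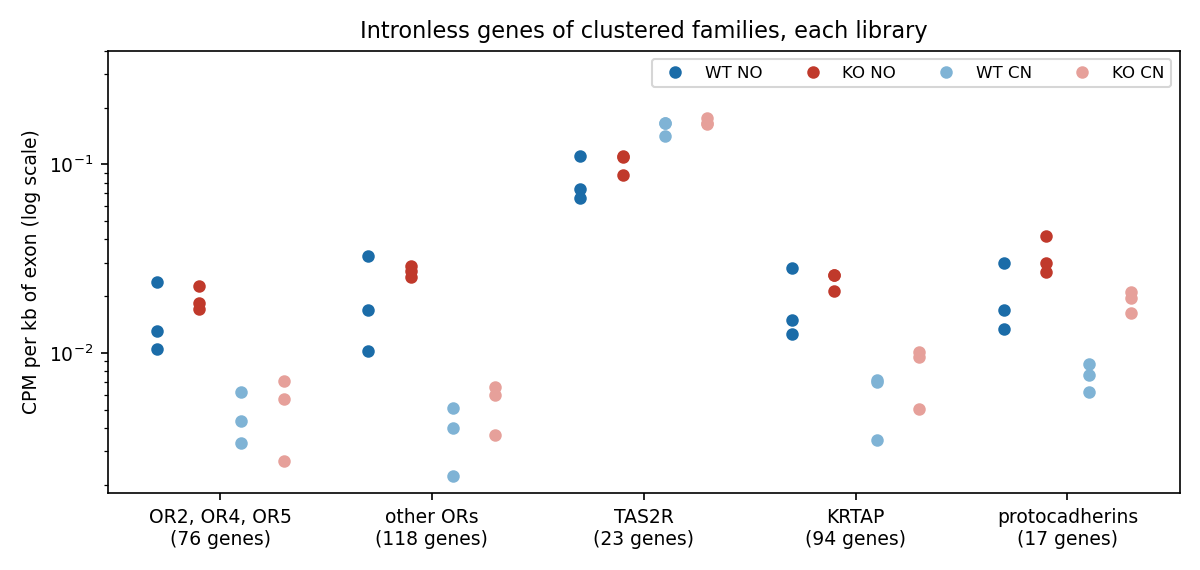
CPM per kb of exon (log axis) over the intronless genes of each family, with a point for each library and colours for the 4 groups. The receptor genes lie at 0.0105 to 0.0236 in NO and 0.00267 to 0.00708 in CN, while the TAS2R genes are higher in CN than in NO.

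The same fits gave values for the remaining relatives. Of the 235 other olfactory receptor genes, 16 were tested between the fractions in WT, with 12 higher in NO, against 31.9% of all genes tested. In KO 43 were tested, with 36 higher in NO, against 40.7%. These genes, too, could pass the filter through NO alone, so the counts describe the genes tested. The summed ratio of the 235 genes was 2.703 in WT and 2.705 in KO. The 357 rows of OR2, OR4 and OR5 pseudogenes and copies had ratios of 3.43 and 2.89. The 44 DEFB genes, which code for beta-defensins, antimicrobial peptides of epithelia, had 3.15 and 3.52.

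The cells did not carry the marks of an olfactory neuron. OMP, the olfactory marker protein, had means of 0.00506 to 0.0121 CPM in the 4 groups, GNG13 had 0.00676 to 0.0295 CPM and RTP1, a chaperone that brings receptors to the cell surface, had 0.0101 to 0.0732 CPM. Over 9 olfactory neuron markers the summed level was 10.1 to 11.4 CPM in NO and 11.1 to 15.2 CPM in CN, most of it GNAL and ADCY3, which many tissues express. Markers of the HEK293 line were present at unlike levels. Over 8 such markers the means ran from 0.465 CPM for NES to 41.1 CPM for VIM in WT CN. In KO CN they ran from 1.66 CPM for PAX2 to 21.2 CPM for LIN28B. LIN28B had 23.98 CPM in WT CN, and 8.31 CPM in WT NO and 8.77 CPM in KO NO. VIM had 13.9 CPM in KO CN. VIM codes for vimentin, an intermediate filament protein. Of the 8 markers of the line 2 were higher and 4 lower in KO CN (edgeR), against 15.6% higher and 22.3% lower of all genes tested. With scaling to total counts 2 were higher and 2 lower.

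Of 19 genes of olfactory signalling and receptor trafficking, 16 were tested between the genotypes in NO and 0 were called by edgeR or DESeq2, with 3 at an unadjusted p under 0.05 in edgeR. In CN 13 were tested, with 4 higher and 3 lower in KO, against 15.6% higher and 22.3% lower of all genes tested. The higher genes were ANO2, a calcium-activated chloride channel, at 1.55 ± 0.21, PDE1C, a phosphodiesterase, at 0.76 ± 0.14, NCALD, a calcium sensor, at 0.68 ± 0.16, and ARRB2, an arrestin, at 0.48 ± 0.12. The lower genes were GRK3, a receptor kinase, at -0.66 ± 0.08, RIC8B, a helper of the olfactory G protein, at -0.51 ± 0.09, and GNB1, a G protein subunit, at -0.29 ± 0.07. Between the fractions in WT 7 of 14 were higher in NO and 3 lower, against 31.9% higher and 20.9% lower of all genes tested. Among the higher were ANO2 at 2.29 ± 0.43 and CNGB1, a channel subunit, at 2.00 ± 0.57. With scaling to total counts 4 were higher and 1 lower.

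Of 10 regulators of receptor choice, EBF1 and EBF2, transcription factors that bind receptor promoters, were higher in KO CN, by 0.58 and 1.17, and EBF3 and KDM1A, the histone demethylase LSD1, were lower, by -0.27 and -0.35. In NO 0 were called by edgeR, with 1 at an unadjusted p under 0.05, and DESeq2 called 1, EBF2. Of 14 heterochromatin genes, 4 were lower and 1 higher in KO CN, against 22.3% lower and 15.6% higher of all genes tested. The lower genes were SUV39H2 and EHMT1, both H3K9 methyltransferases, at -0.43 and -0.47, TRIM28 at -0.57 and HELLS at -0.61, and the higher gene was DAXX at 0.55. The 8 genes of the nuclear lamina and its anchors had 5 lower and 1 higher in KO CN, with LBR, the lamin B receptor, at -0.75 and LMNB1 at -0.67 among the lower. In NO 0 of the 14 and 0 of the 8 genes were called between the genotypes by edgeR, with 2 and 4 at an unadjusted p under 0.05, and DESeq2 called TRIM28 and EMD, which codes for emerin. With scaling to total counts the lower calls in KO CN became 0 of 14 heterochromatin, 2 of 8 lamina, 0 of 10 regulator and 0 of 13 signalling genes. Between the fractions, 9 of the 14 heterochromatin genes were lower in WT NO and 14 of 14 in KO NO, and 6 and 7 of the 8 lamina genes were, against 20.9% and 35.6% of all genes tested. These calls depended on the scaling, since with total counts 2 and 2 of the heterochromatin genes and 0 and 3 of the lamina genes were lower. The median log2 fold change of KO against WT in CN was -0.07 for the heterochromatin genes and -0.56 for the lamina genes, against 0.04 for all genes tested.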

How the data were processed

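The authors trimmed 75-base single reads with cutadapt 3.7, aligned them to GRCh38 with STAR 2.7.8, keeping reads with up to 20 alignments, and deposited raw counts per gene from featureCounts. The annotation release, strand setting and treatment of reads with several positions are not given in the sources used here. Copy rows with equal counts show that such reads were counted in more than 1 row, which raises the counts of near-identical genes. An intronless receptor row can also hold reads from unspliced neighbouring transcripts or from traces of DNA, and neither was tested.

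All rows were tested with edgeR 4.0.16 (filterByExpr with a minimum count of 10, TMM, quasi-likelihood test, Benjamini-Hochberg adjustment over all genes tested, threshold 0.05) on the libraries of the groups compared, or on all 12 for the interaction. DESeq2 1.42.0 was an alternative. Errors of fold changes are standard errors. The test script was checked on simulated counts. Library totals of 37141666 to 104040073 limit the precision, and intervals cover counting error only. Gene positions came from RefSeq (GRCh38.p14) and exon lengths from GENCODE release 44, and all 173 symbols matched both. The receptor genes and gene lists were chosen with earlier results of these data known. Named receptor genes were the 10 with the highest mean CPM, the 5 with the highest CPM per kb, those called between the genotypes and the 5 highest and 5 lowest called changes between the fractions in each genotype. OR2A12, OR2AG2, OR2T35, OR4F29 and OR5AN1 were named after their values were seen.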

Additional observations from a re-analysis of the deposited data

How the results depend on the processing

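Between the genotypes in NO, 0 to 2 receptor genes were called when single libraries were left out, 2 of them without WT NO replicate 3, and 1 passed at an unadjusted p. In CN the count of 1 became 0 with DESeq2 or total-count scaling, 3 with no filter, 2 with at least 10 counts in every library or at an unadjusted p, and 0 to 2 with a library left out. Between the fractions in WT the 10 calls became 23 with DESeq2, 41 with no filter, 3 with at least 10 counts in every library, 32 with all 12 libraries in one fit and 9 to 22 with a library left out, 22 without WT NO replicate 2. In KO the 21 calls became 54, 4 and 32 with no filter, the stricter filter and the joint fit, and 20 to 34 with a library left out, 34 without KO NO replicate 2 and 33 without KO CN replicate 3. In WT, DESeq2 called 23 of 170 receptor genes higher in NO, against 10229 of 57416 genes. The joint fit called 32 of 45, against 14580 of 37806 genes in WT and 14479 of 37806 in KO. Shares over all genes are not given for the other settings, so these counts describe the settings and not the family. The interaction had 1 at an unadjusted p.

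The ratio of the sums in NO and CN, 1.70 in WT and 1.64 in KO, was 2.81 and 2.71 per total count, 2.29 and 2.11 without OR4F16, and 2.95 and 2.78 without genes with copies. After seeing the data it was also computed without OR4F16 and OR4F3 (3.17 and 2.91), over intronless genes (3.08 and 2.93) and over those with unique coding sequence (3.01 and 3.53). In KO it was 2.09 without overlapping genes and 1.94 with pseudogenes and copy rows. With the replicate number as a block, 0, 1, 9, 21 and 0 receptor genes were called in the same order. Same-numbered libraries tended to deviate from their group means in opposite directions, with correlations of -0.53 to -0.055. Whether the numbers pair libraries is not given in the labels and was not settled. No called fold change of a named gene changed sign. Among values that were not called, OR4F16 in WT, 0.01, was -0.27 with DESeq2 and with no filter, -0.26 in the joint fit and -0.18 to 0.015 with a library left out. In KO, OR4F16, -0.23, was 0.53 with total counts, 0.20 with the stricter filter and -0.46 to 0.0052 with a library left out, past the threshold at -0.46 without KO NO replicate 3. OR2AG2 in KO, -0.28, was 0.50 with total counts. Of the 173 genes 149 had under 100 counts in all.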
